A study of Oryctolagus cuniculus with 8 samples.

Results

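The genes described here are the developmental transcription factor families of rabbit limbal cells: the FOX, HOX, SOX, KLF, GATA, TBX, IRX, MEIS, PBX, LHX, PITX, RUNX and TFAP2 genes and genes of the sine oculis homeobox family. They were chosen by name alone, as every entry of the deposited table with such a family symbol that occurs once. This gave 112 of 20922 gene entries, among them 37 HOX, 20 FOX, 11 KLF and 10 SOX genes. SOX10, TBX21 and FOXM1 were set aside. Of the 112 names, 111 also stand in a RefSeq gene table of the rabbit (assembly mOryCun1.1). RUNX1, SOX18, KLF2, KLF6, FOXC1, FOXC2, FOXO1, TFAP2C, PITX1, TBX3, SIX3, IRX3, IRX4 and LHX2 had no usable entry and were not analysed here.

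Proteins of these families bind DNA through a conserved domain and switch on the gene programs of a lineage. HOX proteins give cells a position along the body axis, usually with MEIS and PBX proteins as partners on DNA. GATA2 and the SOXF proteins SOX7, SOX17 and SOX18 act in blood vessels, RUNX proteins in bone, blood and nerve, and TFAP2 and KLF5 in surface epithelia. The cornea and its rim, the limbus, come from surface ectoderm that depends on PAX6.

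The samples were limbal epithelial cells of New Zealand white rabbits, stained with the DNA dye Hoechst 33342 and sorted into side population (SP) cells, which keep little dye, and the remaining non-side-population (NSP) cells. Total RNA was sequenced on an Ion Proton machine in 4 SP and 4 NSP libraries, with no treatment or genotype in the labels. The comparison asks how gene expression differs between dye-excluding and other limbal cells. Nothing in the labels ties a library to an animal of its own. The p-values therefore reflect how much these 8 libraries vary, and that variation can be technical.

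The libraries held 15553295 to 18931836 exon reads in SP and 20445565 to 23529101 in NSP. Levels are CPM, exon reads scaled to a common library total, and differences are log2 fold changes of SP over NSP with the standard error of limma-voom and a p-value adjusted over all 10012 genes tested. Markers of several cell types differed between the groups. Markers of limbal and corneal epithelium summed to 4525 to 13285 CPM in SP against 30176 to 51788 CPM in NSP, with 16 of 17 tested genes lower in SP and none higher. CLU, the gene of this list that was not called (limma-voom adjusted p = 0.823), made up much of the SP sums. It gave 3232 of the 4525 CPM in SP 3 and 6384 of the 13285 CPM in SP 4, and it was at 2003 to 3195 CPM in NSP. Endothelial markers summed to 2089, 6352, 7777 and 19079 CPM in SP libraries 1 to 4 and to 9.08 to 15.5 CPM in NSP, and all 11 tested genes were higher in SP. T and NK lymphocyte markers reached 2212, 5478, 8689 and 3279 CPM in SP libraries 1 to 4 against 2.35 to 7.15 CPM in NSP (9 of 9 higher in SP), and CD8B and CXCR6 had no NSP read. Melanocyte markers summed to 13593, 2207, 8436 and 2712 CPM in SP libraries 1 to 4 against 150 to 308 CPM in NSP, with 9 of 9 higher. Myeloid markers summed to between 1190 and 2621 CPM in SP against 46.8 to 110 CPM in NSP (8 of 10 higher). Stromal and mural markers gave 316 to 523 CPM in SP against 47.6 to 60.2 CPM in NSP (8 of 10 higher, 1 lower), and COL3A1 and LUM had no NSP read. KERA had no NSP read either, but in SP it was read in SP 2 alone, at 0.155 CPM, and was not tested. Schwann cell and nerve markers gave 256 to 1039 CPM in SP against 88.3 to 111 CPM in NSP (4 of 6 higher, 1 lower). The 2 groups did not overlap in any of these 7 sums, each with an exact two-sided permutation p of 0.0286, the smallest that 70 splits allow. The lists were chosen with earlier results of these data known, so these p-values only describe the sums. The part of these markers in the results on transcription factors was not tested.

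The transcription factor genes took 0.506% of exon reads in SP and 0.68% in NSP. No read fell on 23 of the 112 genes in any library, and 38 had reads but did not pass the filter on low reads. The other 51 were tested. In SP, 16 were higher, where 17.7% of all genes tested were called higher, and 8 were lower, where 13.0% were called lower. The 2 groups did not overlap in 22 of the 51 genes, 16 of them with SP above and 6 with NSP above, where 32.8% of all genes tested did not overlap. These counts describe the genes that passed the filter on low reads and say nothing particular about the families. Among them, GATA6, HOXD1, HOXD8 and HOXD9 passed it through SP libraries alone and FOXN1 through NSP libraries alone, so these had to differ. The median difference of the 51 was 0.032 on the log2 scale, against 0.124 over all genes tested. In the plot of tested differences, FOXP1, FOXN3 and KLF10 lie near 0, and HOXD genes, GATA6, GATA2 and SOX17 lie at the high end.

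**Figure D1:**
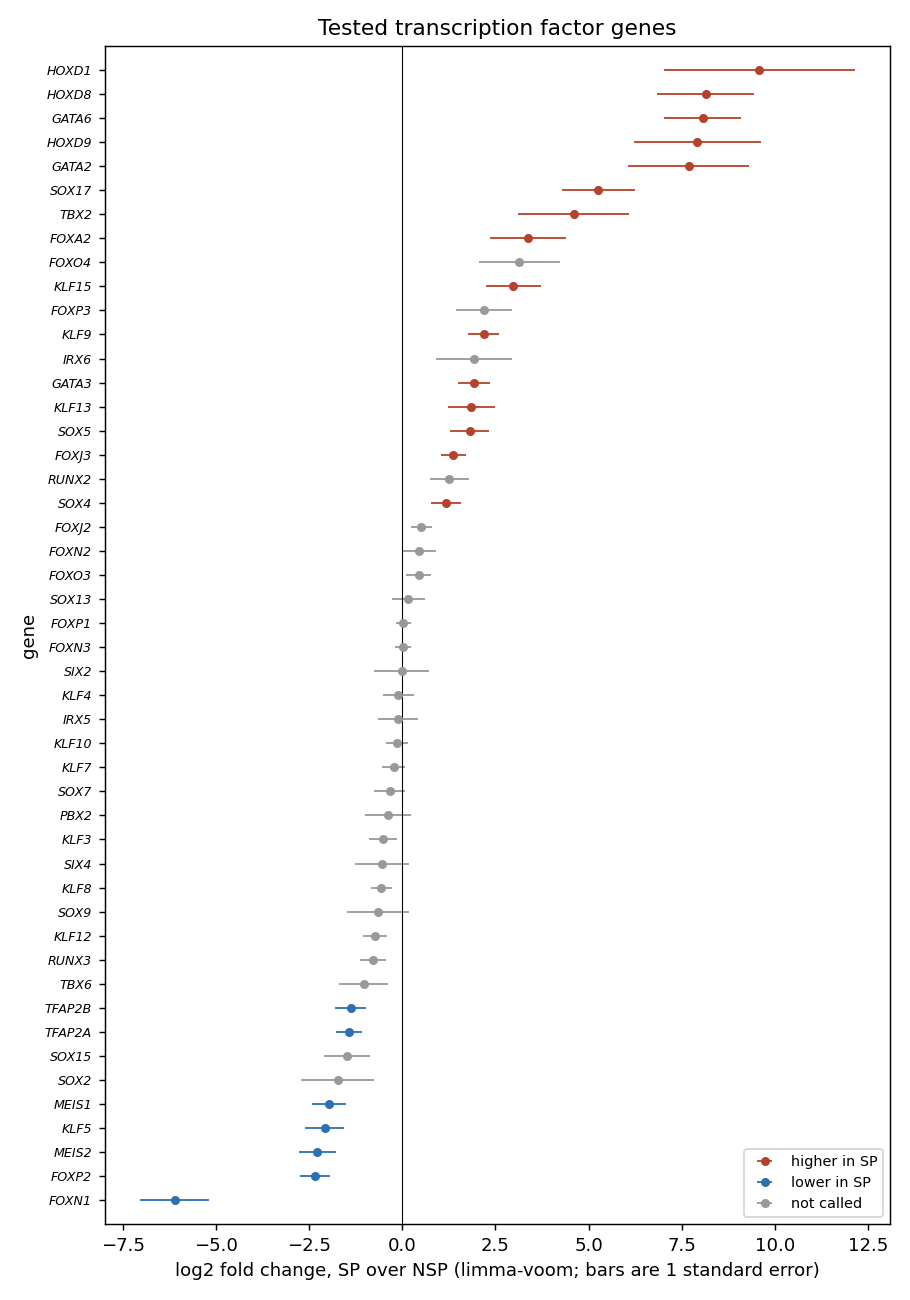
Log2 fold change of SP over NSP (horizontal axis) for 48 of the 51 tested transcription factor genes (vertical axis), from limma-voom over 4 SP and 4 NSP libraries; points are estimates and bars are 1 standard error. Red marks 15 genes called higher in SP, blue 7 called lower and grey 26 not called; FOXN1 at -6.10 is the lowest, and the 5 highest points are HOXD1, HOXD8, GATA6, HOXD9 and GATA2.

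All 3 tested GATA genes, GATA2, GATA3 and GATA6, were called higher in SP, as were 17.7% of all genes tested. GATA6 passed the filter on low reads through SP libraries alone, so it had to differ. GATA1 and GATA4 had reads in 1 SP library each, 3 and 9 reads, and none in NSP, and were not tested. GATA2, which maintains blood stem cells and endothelium, was at 25.3, 82.2, 104 and 256 CPM in SP libraries 1 to 4 and at 0.270, 0.646, 0.449 and 0.290 CPM in NSP libraries 1 to 4. Every SP library exceeded every NSP library, and SP 1 was the lowest and SP 4 the highest of its group. The difference was 7.69 ± 1.62 on the log2 scale (adjusted p = 0.00547). The summed endothelial markers were likewise lowest in SP 1 and highest in SP 4, and their part in the GATA2 result was not tested. In bulk libraries, more cells of a type and more RNA of a gene per cell cannot be told apart.

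GATA6, a factor of endoderm, heart and vascular smooth muscle, was at 6.03, 2.74, 10.3 and 10.2 CPM in SP and had no read in any NSP library. Against 3 reads over the NSP group, which is 0.0354 CPM, the SP mean of GATA6 was at least 206.5-fold higher (adjusted p = 0.000449). Such a bound covers counting error only. GATA6 passed the filter on low reads through SP libraries alone, so it had to differ and its p-value adds no support. GATA3, known from T helper cells and from stratified epithelium, was at 24.0, 40.4, 65.8 and 22.7 CPM in SP and at 12.5, 7.94, 7.73 and 9.28 CPM in NSP. The groups did not overlap, and SP 3 had the most GATA3. The lymphocyte, the myeloid and the stromal and mural marker sums were also highest in SP 3. GATA3 was lowest in SP 4, while the lymphocyte sum was lowest in SP 1. The part of these markers in the GATA3 result was not tested. The difference of GATA3 was 1.93 ± 0.42 (adjusted p = 0.00684), and it had the only GATA level in NSP above 1 CPM.

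The SOX genes split by member: of 8 tested, SOX17, SOX5 and SOX4 rose, none fell and 5 were not called. SOX17, which specifies arterial endothelium, was at 26.5, 89.3, 94.7 and 217 CPM in SP libraries 1 to 4 and at 1.98, 2.86, 1.60 and 2.22 CPM in NSP. The order of the SP libraries was that of GATA2 and of the endothelial marker sum. The difference was 5.26 ± 0.97 (adjusted p = 0.00287). SOX7, from the same SOXF subgroup, did not pass the test: it was at 57.6, 129, 119.7 and 308 CPM in SP and at 159.6, 165, 152 and 171 CPM in NSP. SP 1, SP 2 and SP 3 lay below the NSP range and SP 4 lay above it. The difference of SOX7 was -0.34 ± 0.41 (adjusted p = 0.571), and without SP replicate 4 it was -0.91 (adjusted p = 0.0291). Per kilobase of exon, SOX7 had 86.12 CPM in SP against 90.76 CPM in NSP. On the same scale SOX17 had 49.86 CPM in SP against 1.009 CPM in NSP. By this level per length SOX7 ranked 5 among the 112 genes in both groups, and SOX17 ranked 9 in SP and 35 in NSP.

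SOX5, which acts in cartilage, melanocytes and neurons, was at 23.8, 7.70, 9.36 and 7.94 CPM in SP and at 3.28, 4.52, 1.94 and 3.09 CPM in NSP. The groups did not overlap, and SP 1 stood above the other SP libraries. The melanocyte and the Schwann cell and nerve marker sums were also highest in SP 1. The melanocyte sum was 8436 CPM in SP 3 as well, where SOX5 was at 9.36 CPM. The part of these markers in the SOX5 result was not tested. The difference of SOX5 was 1.81 ± 0.53 (adjusted p = 0.0258). SOX4, a SOXC gene of progenitor cells, was at 106, 60.8, 104 and 57.8 CPM in SP and at 51.7, 57.5, 30.1 and 16.2 CPM in NSP. The lowest SP value of SOX4 was next to the highest NSP value, and its difference was 1.18 ± 0.41 (adjusted p = 0.0485). SOX2, a factor of pluripotent and neural stem cells, was low, with 3 to 22 reads per SP library and 14 to 95 per NSP library, and its difference of -1.73 ± 0.97 was not called (adjusted p = 0.205). SOX9, a factor of hair follicle and glandular progenitors, varied within both groups, from 8.66 to 135 CPM in SP and from 20.2 to 130.2 CPM in NSP (difference -0.64 ± 0.83, adjusted p = 0.596). SOX15 had -1.49 ± 0.62 (adjusted p = 0.0934), and SOX13 0.16 ± 0.44. The SOX5 call was lost without NSP replicate 1, 3 or 4 (adjusted p up to 0.0802), and the SOX4 call in 10 of 15 alternative fits.

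**Figure D2:**
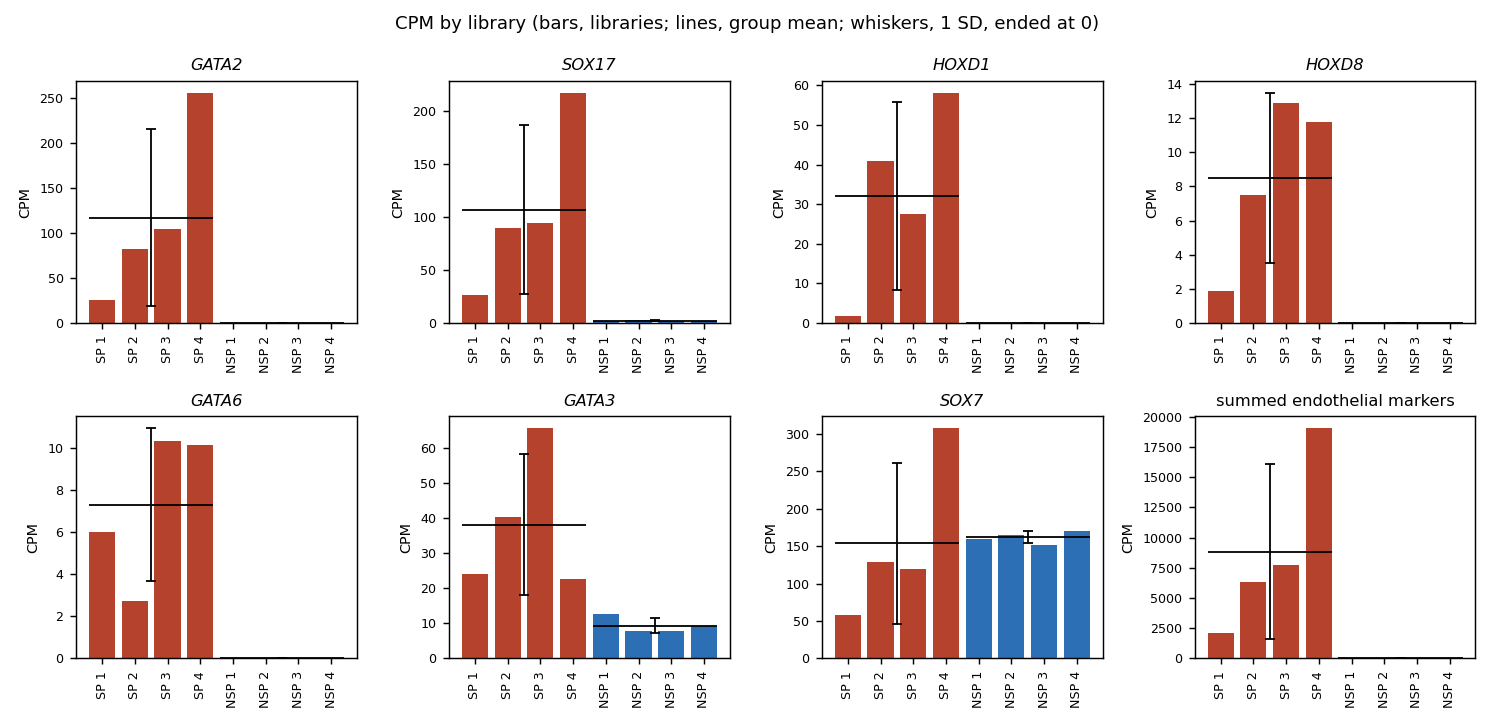
CPM (vertical axes, linear, from 0) in each SP library (red) and NSP library (blue) for GATA2, SOX17, HOXD1, HOXD8, GATA6, GATA3 and SOX7 and for the sum of the endothelial markers; black lines are group means of 4 libraries and whiskers 1 SD, ended at 0. GATA2 (25.3 to 256 CPM in SP), SOX17 (26.5 to 217 CPM) and the marker sum (2089 to 19079 CPM) are lowest in SP 1 and highest in SP 4, and SOX7 is the panel where the groups overlap.

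HOX reads were found almost entirely in SP. The 37 HOX genes together had 3956 reads in the SP libraries and 10 in the NSP libraries, and the HOXD cluster held 94.3% of the SP reads. The 9 HOXD genes had 84, 1185, 986 and 1475 reads in SP libraries 1 to 4 and none in any NSP library. SP 1 had the fewest HOXD reads and SP 4 the most, the same ends as for the endothelial marker sum, and the part of those cells in the HOXD reads was not tested. Of the 37 genes, 16 had a read in SP, 3 had one in NSP and 19 had none in any library.

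HOXD1, HOXD8 and HOXD9 had enough reads for the test, and all 3 rose. They passed the filter on low reads through SP libraries alone, so they had to differ. Their p-values therefore add no support for a difference. HOXD1, at the 3′ end of the cluster, was at 1.79, 40.9, 27.5 and 58.2 CPM in SP libraries 1 to 4. Its SP mean was at least 905.2-fold above the NSP floor (adjusted p = 0.0172), and SP 1 lay far below that mean. HOXD8 was at 1.85, 7.49, 12.9 and 11.8 CPM, with an SP mean at least 239.6-fold above that floor (adjusted p = 0.0013). HOXD9 was at 0.815, 7.65, 10.5 and 18.7 CPM, with an SP mean at least 265.4-fold above the floor (adjusted p = 0.00618). In each of the 3 genes SP 1 was the lowest library. The HOXD1 call was lost when any 1 NSP library was left out (adjusted p up to 0.0664), and the fitted changes of genes with no NSP read depend on the added count: HOXD8 had 8.14 in limma-voom and 3.90 in limma-trend.

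The neighbours of these genes had fewer reads, did not pass the filter and were not tested. HOXD3 had 2, 70, 24 and 127 reads in SP libraries 1 to 4, with an SP mean at least 97.8-fold above the NSP floor. HOXD4 had 0, 29, 12 and 29 reads (SP mean at least 29.37-fold), and HOXD10 had 0, 2, 5 and 47 (SP mean at least 25.72-fold). HOXD11, HOXD12 and HOXD13, toward the 5′ end of the cluster, had no read in any library. In the RefSeq gene table the HOXD11 model overlaps those of HOXD8 and HOXD9, and how the counting treated strand and overlaps is not given in the sources used here. HOXD11 was counted apart, with no read beside 587 SP reads of HOXD8 and 626 of HOXD9. Whether reads of overlapping models in this cluster were dropped or given to a neighbour is not known here.

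Outside HOXD, HOX reads were sparse and uneven between libraries. HOXA9, known from blood progenitors and endothelium, had 37, 7, 11 and 3 reads in SP and none in NSP. Its SP mean was at least 22.39-fold above the floor, and it was the only HOX gene outside HOXD with reads in all SP libraries. Its highest library was SP 1, unlike the HOXD genes. HOXB5 had 0, 64, 0 and 16 reads in SP and none in NSP (SP mean at least 31.19-fold). HOXC4 was the only HOXC gene with reads, 14, 0, 1 and 7 in SP and none in NSP (SP mean at least 9.188-fold). HOXB3 had 17 reads in SP and 3 in NSP, a ratio of 6.79 with a 95% counting interval of 1.96 to 36.1. HOXA11, with 5 reads in NSP 4, and HOXA13, with 2 in NSP 1, were the HOX genes read in NSP alone.

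**Figure D3:**
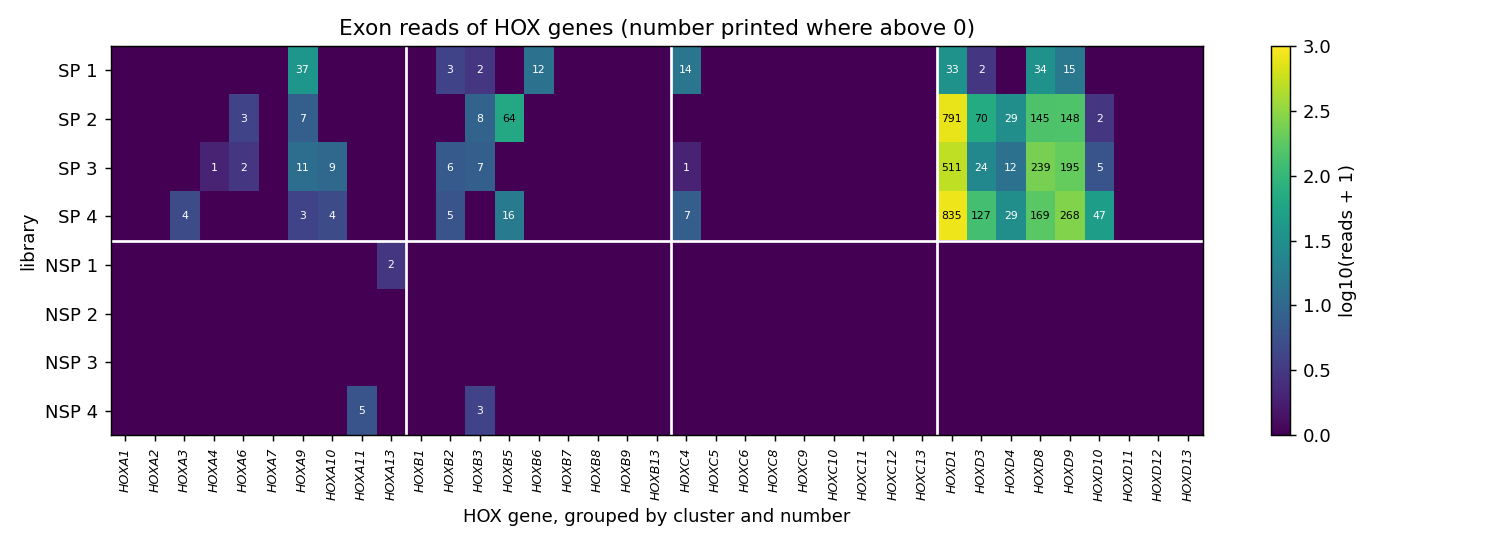
Exon reads of the 37 HOX genes (horizontal axis, grouped by cluster and number; white lines part the clusters) in each library (vertical axis, SP above, NSP below); the colour scale is log10(reads + 1), and read numbers are printed where above 0. The HOXD block holds up to 835 reads in a cell for HOXD1 and is at 0 in the 4 NSP rows, and HOXD11, HOXD12 and HOXD13 are at 0 in all 8 rows.

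The MEIS genes, which encode cofactors of HOX proteins, went the other way. MEIS1 and MEIS2, TALE homeobox genes whose proteins bind DNA with HOX proteins, both fell in SP, and PBX2, another such gene, was not called. MEIS1 was at 66.5, 90.9, 20.8 and 45.6 CPM in SP and at 144, 139.9, 370.0 and 178 CPM in NSP. NSP 3 stood above the other NSP libraries, and even the lowest NSP value exceeded all SP values. The difference was -1.96 ± 0.46 (adjusted p = 0.00988). MEIS2 was at 14.1, 14.5, 2.74 and 4.04 CPM in SP and at 39.9, 40.2, 25.9 and 33.7 CPM in NSP, again without overlap, a difference of -2.28 ± 0.50 (adjusted p = 0.00672). In MEIS1 and MEIS2 the lowest SP library was SP 3, which also had the lowest epithelial marker sum, 4525 CPM. CLU, which did not differ between the groups in the test, gave 3232 CPM of that sum. The part of that marker sum in the falls was not tested. PBX2 ranged from 16.9 to 28.9 CPM in SP and from 6.53 to 60.2 CPM in NSP (-0.38 ± 0.62, adjusted p = 0.678).

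TFAP2A and TFAP2B, which act in neural crest, surface ectoderm and the lens and corneal epithelium, were lower in SP. TFAP2A was at 174, 53.8, 63.9 and 58.9 CPM in SP and at 226, 172, 237 and 199 CPM in NSP. SP 1 stood far above the other SP libraries and reached the lowest NSP value, so the groups overlapped. The difference was -1.42 ± 0.35 (adjusted p = 0.0123). TFAP2B was at 198, 83.5, 69.0 and 54.1 CPM in SP and at 143, 232, 402 and 217 CPM in NSP, and here too SP 1 fell within the NSP range. Its difference was -1.38 ± 0.42 (adjusted p = 0.0305). Of the SP libraries, SP 1 also had the highest melanocyte marker sum, 13593 CPM, and the highest Schwann cell and nerve marker sum, 1039 CPM. The melanocyte sum was 8436 CPM in SP 3, where TFAP2A was at 63.9 CPM and TFAP2B at 69.0 CPM. The part of these markers in these 2 genes was not tested. The TFAP2B call was lost without SP replicate 2 or 3 or without NSP replicate 2, 3 or 4 (adjusted p up to 0.0799). TFAP2D had 6 reads in all.

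The KLF genes held the highest levels and changed in both directions: of 10 tested, KLF9, KLF15 and KLF13 rose, KLF5 fell and 6 were not called. KLF5, which drives proliferation of basal epithelial cells, was at 689.7, 1261, 167 and 645 CPM in SP and at 2512, 2547, 1952 and 2431 CPM in NSP. The groups did not overlap, and SP 3 was again the lowest library. The difference was -2.09 ± 0.51 (adjusted p = 0.0119). Per kilobase of exon, KLF5 had 689.1 CPM in NSP, the highest level among the 112 genes, and 201.7 CPM in SP, second to KLF10 with 350.2 CPM.

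KLF9, a glucocorticoid-responsive gene, was at 120.1, 137, 219 and 377 CPM in SP and at 53.6, 59.5, 21.9 and 44.7 CPM in NSP. Every SP library was above every NSP library, and the difference was 2.18 ± 0.42 (adjusted p = 0.00349). KLF15, a regulator of metabolism, was at 6.80, 2.84, 5.86 and 6.48 CPM in SP and at 1.03, 0.415, 1.80 and 0.193 CPM in NSP, a difference of 2.98 ± 0.75 (adjusted p = 0.0127). KLF13, which acts in lymphocytes and other cells, was at 5.76, 7.96, 14.1 and 11.1 CPM in SP and at 4.14, 4.38, 0.598 and 3.38 CPM in NSP. Its groups lay close together without overlapping, its difference was 1.85 ± 0.63 (adjusted p = 0.0477), and this call was lost in 10 of 15 alternative fits.

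KLF4, a factor of epithelial barrier formation and of reprogramming, was not called. It was at 129, 127, 93.7 and 90.0 CPM in SP and at 305, 106, 65.9 and 87.2 CPM in NSP, where NSP 1 stood apart from the rest. The difference was -0.11 ± 0.42 (adjusted p = 0.873). KLF10, a TGF-beta inducible gene, was at 739, 974, 775 and 1763 CPM in SP and at 1357, 1022, 1048 and 996 CPM in NSP (-0.14 ± 0.30, adjusted p = 0.762). KLF3, KLF7, KLF8 and KLF12 had estimates from -0.73 to -0.23 and were not called. KLF14 had 22 reads in SP and 34 in NSP.

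**Figure D4:**
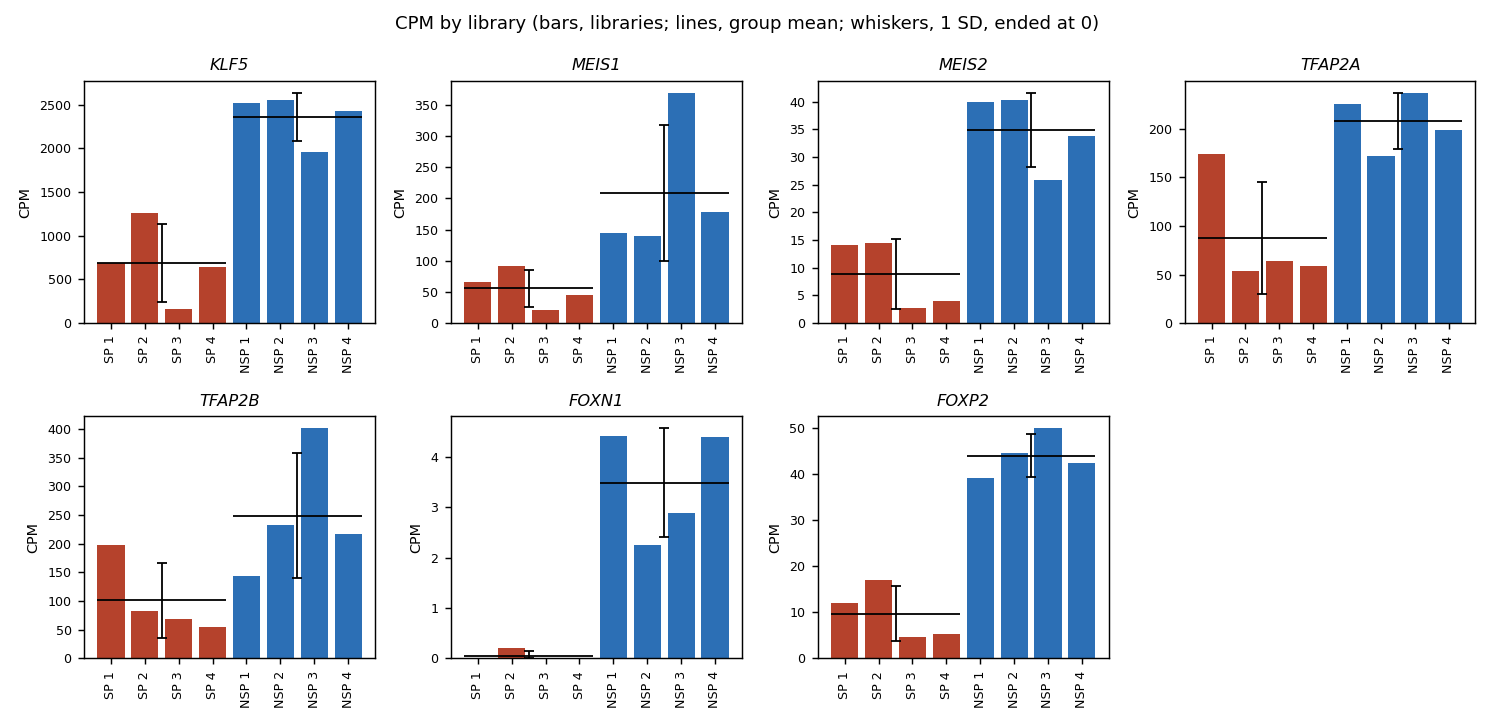
CPM (vertical axes, linear, from 0) in each SP library (red) and NSP library (blue) for 7 of the 8 genes called lower in SP; black lines are group means of 4 libraries and whiskers 1 SD, ended at 0. SP 3 is the lowest library for KLF5 (167 CPM), MEIS1 (20.8 CPM), MEIS2 (2.74 CPM) and FOXP2 (4.68 CPM), and SP 1 reaches the NSP range for TFAP2A (174 CPM) and TFAP2B (198 CPM).

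Of 11 FOX genes tested, FOXA2 and FOXJ3 rose, FOXN1 and FOXP2 fell and 7 were not called. FOXN1, needed for thymic epithelium and for keratinocyte differentiation in skin and hair, had 0, 4, 0 and 0 reads in SP libraries 1 to 4 and 98, 49, 58 and 91 reads in NSP. The difference was -6.10 ± 0.93 (adjusted p = 0.00105), and it was -2.83 with limma-trend. FOXN1 passed the filter on low reads through NSP libraries alone, so it had to differ and its p-value adds no support. FOXP2, a repressor known from brain and lung epithelium, was at 12.0, 17.1, 4.68 and 5.30 CPM in SP and at 39.1, 44.7, 50.0 and 42.4 CPM in NSP. All NSP libraries lay above all SP libraries, and SP 3 was the lowest. The difference was -2.34 ± 0.39 (adjusted p = 0.00172).

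FOXA2, a pioneer factor of endoderm, was at 6.03, 13.2, 1.99 and 2.09 CPM in SP and at 0.900, 0.461, 0.598 and 0.0966 CPM in NSP. The groups did not overlap, and SP 1 and SP 2 were the highest. The difference was 3.37 ± 1.02 (adjusted p = 0.0297), and the call was lost when any 1 NSP library was left out (adjusted p from 0.0627 to 0.0854). FOXJ3 was at 46.7, 37.0, 30.2 and 19.1 CPM in SP and at 12.2, 16.1, 10.4 and 11.4 CPM in NSP, a difference of 1.37 ± 0.34 (adjusted p = 0.0126) that was lost without NSP replicate 1 (adjusted p = 0.0634). FOXP1, expressed in many tissues, was at nearly one level in all libraries, 291 to 435 CPM in SP and 312 to 341 CPM in NSP (0.03 ± 0.21, adjusted p = 0.924). FOXN3, FOXN2 and FOXJ2 were not called either, with 0.03 ± 0.22, 0.46 ± 0.44 and 0.51 ± 0.29. FOXO3, a stress-responsive factor, had 152 to 375 CPM in SP and 118 to 238 CPM in NSP (0.44 ± 0.33, adjusted p = 0.34).

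FOXP3, the defining factor of regulatory T cells, had 99, 73, 105 and 18 reads in SP and 21, 7, 14 and 34 in NSP. The groups overlapped through SP 4 and NSP 4, and the difference of 2.20 ± 0.76 was not called (adjusted p = 0.0503). Without SP replicate 4 it was 2.45 (adjusted p = 0.0143). FOXO4, related to FOXO3, had 108, 99, 48 and 67 reads in SP and 46, 16, 0 and 28 in NSP. Its groups did not overlap in CPM, and its difference of 3.14 ± 1.09 was not called (adjusted p = 0.0506). FOXI1, known from ionocytes, had 90, 5, 32 and 27 reads in SP and 7, 0, 0 and 0 in NSP and did not pass the filter. FOXD2 did not pass it either, with 7, 15, 22 and 20 reads in SP and 1, 0, 0 and 2 in NSP, a ratio of 25.5 with a 95% counting interval of 8.36 to 127.

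Both RUNX genes were expressed and neither was called. RUNX2, known from bone and also expressed in lymphocytes, was at 303, 289, 252 and 215 CPM in SP and at 59.9, 66.7, 415 and 86.5 CPM in NSP. The SP values lay close together, and NSP 3 exceeded all of them while the other NSP libraries lay below. The difference was 1.26 ± 0.53 (adjusted p = 0.0948), and without NSP replicate 3 it was 1.90 (adjusted p = 0.00131). RUNX3, known from T cells and sensory neurons, was at 42.7, 99.9, 77.3 and 69.3 CPM in SP and at 81.4, 123, 199.8 and 101 CPM in NSP, with overlap. Its difference was -0.78 ± 0.34 (adjusted p = 0.107). NSP 3 was the highest NSP library for RUNX2, RUNX3, MEIS1 and TFAP2B.

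Of the T-box genes TBX2 and TBX6, the 2 tested, TBX2 rose and TBX6 was not called. TBX2, a repressor of cell cycle inhibitors that is expressed in the developing eye, had 80, 4, 39 and 26 reads in SP and 16, 0, 0 and 0 in NSP. SP 2 and NSP 1 overlapped, and the difference of 4.61 ± 1.49 (adjusted p = 0.0384) was lost in 6 of 15 alternative fits.

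SIX2 averaged 8.17 ± 4.86 CPM over the SP and 8.57 ± 6.65 CPM over the NSP libraries (SD, n = 4 each), a difference of -0.02 ± 0.73 from limma-voom. IRX5, an Iroquois homeobox gene, averaged 9.46 ± 4.28 CPM over the SP and 11.1 ± 7.35 CPM over the NSP libraries (SD, n = 4 each), a difference of -0.11 ± 0.53. IRX6 and SIX4 had 1.93 ± 1.02 and -0.54 ± 0.72 and were not called. TBX6 had 11 to 28 reads per SP library and 22 to 81 per NSP library and was not called (-1.04 ± 0.67). TBX18, a mural cell and mesenchymal factor, had 6 reads in SP 2 and 2 in NSP 4, a ratio of 3.59 with a 95% counting interval of 0.642 to 36.4. PITX3, a lens factor, had 9 reads in SP and 8 in NSP. LHX4 had 2 reads in SP and 9 in NSP, LHX1 had 2 in NSP, and LHX8 and LHX9 had none.

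Partners and relatives of these families changed in both directions as well. Of 62 genes listed, 44 had an entry and 41 were tested, of which 11 were higher and 10 lower in SP, beside 17.7% and 13.0% of all genes tested. Their median difference was 0.114, against 0.124 over all genes tested. The list was not tested as a group, and these counts only describe it. The 3 highest-ranked rises by p-value were MEF2C, a partner of SOX proteins in vessels, TCF4, a widely expressed basic helix-loop-helix factor, and TLE1, a corepressor. MEF2C was at 151, 105, 165 and 249 CPM in SP and at 4.29 to 5.09 CPM in NSP (5.07 ± 0.42, adjusted p = 8.86e-05). TCF4 was at 246, 305, 446 and 759.9 CPM in SP and at 26.7 to 32.8 CPM in NSP (3.76 ± 0.36, adjusted p = 0.000158). TLE1 ranged from 113 to 150.2 CPM in SP and from 16.3 to 40.8 CPM in NSP (2.12 ± 0.29, adjusted p = 0.000636). TCF4 rose in the order of the SP libraries seen for GATA2 and SOX17, and TLE1 differed little between SP libraries.

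The 3 highest-ranked falls were DLX3, a homeobox gene of surface epithelium, KCTD1, a repressor of TFAP2 proteins, and TP63, the master factor of stratified epithelium. DLX3 ranged from 0 to 0.209 CPM in SP and from 8.84 to 17.3 CPM in NSP (-7.73 ± 0.93, adjusted p = 0.000354). KCTD1 ranged from 3.93 to 9.13 CPM in SP and from 28.9 to 45.5 CPM in NSP (-2.63 ± 0.36, adjusted p = 0.000594). TP63 was at 25.4, 2.02, 1.56 and 24.1 CPM in SP and 189 to 391 CPM in NSP (-5.41 ± 0.75, adjusted p = 0.000654). None of the 3 overlapped between groups, and TP63 is also among the epithelial markers.

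The authors' deposited table holds its own test (EDGE) on the same libraries. In the authors' deposited table, 20 of the 112 genes were higher in SP at a corrected p of at most 0.05, where 7.58% of all entries were, and 8 were lower, where 5.84% were. The 8 lower genes were the same as with limma-voom, and 13 of the higher ones were shared. FOXD2, FOXI1, HOXA9, HOXB5, HOXD3, HOXD4 and HOXD10 were called by the authors' deposited table alone and did not pass the filter here. KLF13, SOX4 and TBX2 were called with limma-voom alone. Both tests use the same reads, so the shared calls are no independent support.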

How the data were processed

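RNA of 4 SP and 4 NSP libraries was compared. The authors deposited one text table, 163 fields wide at 8 characters each, stacked in 6 blocks, with 20922 gene entries. Its fields touch and were separated by position. Per the file headers, cut at 8 characters, per-library fields show the group and no measure. For each library a field of whole numbers was used and taken as the exon count, beside the exon length and the authors' EDGE fold change and corrected p, and 143 other per-library fields were not used here. Aligner and genome build are not given in the sources. Columns name no replicate, so libraries are numbered in column order within a group.

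Library sizes were adjusted by TMM, trimming 30% of log ratios and 5% of levels. Genes with at least 0.508 CPM (10 reads in the median library) in 4 libraries and 15 reads in all were tested with limma-voom (limma 3.58.1, R 4.3.3; count offset 0.5; group only; two-sided; Benjamini-Hochberg adjusted p of 0.05). The procedure was tested on simulated data in which all genes shared the same dispersion, unlike here, so that run does not measure its errors on these libraries. edgeR and DESeq2 were not run. Where NSP had no read, folds are bounds of the SP mean against 3 reads over the NSP group, and single SP libraries can lie below them. Sums of marker lists were compared by exact permutation. Other steps ran in Python 3.11.15 with SciPy 1.17.1, pandas 2.3.3, NumPy 2.4.6 and matplotlib 3.10.9.

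Genes are named with values if among the 14 largest rises or falls past the threshold, on a fixed list, or highest in their family in a group, and partners if among the 3 smallest p per direction. Other members with few reads or no call, and FOXJ3, were named after their values were seen. Some genes that the rule names are left out of the text and plots and stay in all tests and counts. The genes, lists and rules were chosen with earlier results of these data known. Alternatives were other scaling factors, filters, limma-trend, thinning to 15553295 reads, leaving out each library and, added after seeing the data, voom with quality weights.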

Additional observations from a re-analysis of the deposited data

Results flagged for a closer look

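Of 72 groups of 4 libraries with at least 10 reads over the group, checked among the named genes, 7 held a library far from the other 3 by Dixon's ratio. Chance alone marks about 1 in 20 groups if values are normally distributed, which low counts are not. NSP 1 stood above the other NSP libraries in 3 genes. KLF10 was at 1357 CPM there against 996 to 1048 CPM, KLF4 at 305 CPM against 65.9 to 106 CPM, and TBX2 at 0.72 CPM against 0 CPM. With the other NSP libraries of TBX2 at 0, its ratio had to be 1, so that flag carries no weight. NSP 3 stood above the other NSP libraries in MEIS1, at 370.0 CPM against 139.9 to 178 CPM, and in RUNX2, at 415 CPM against 59.9 to 86.5 CPM. SP 1 stood above the other SP libraries in SOX5, at 23.8 CPM against 7.70 to 9.36 CPM, and in TFAP2A, at 174 CPM against 53.8 to 63.9 CPM. TFAP2A and MEIS1 kept their call in each of the 15 alternative fits, which include those without SP replicate 1 and without NSP replicate 3.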

How the results depend on the processing

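In 15 alternative fits no gene with a call reversed, and 16 of the 24 called genes (9 higher, 7 lower) kept their call in all of them. Among these are GATA6, HOXD8, HOXD9 and FOXN1, which passed the filter on low reads through SP or NSP libraries alone. They had to differ, so their kept calls add no support. The number of genes called higher was 16 and ranged from 10 to 14 when 1 library was left out, with 10 without NSP replicate 1 and 10 without NSP replicate 4. It was 14 with median-ratio and with upper-quartile factors and 17 after thinning. With limma-trend and with quality weights it was 18, and with no filter beyond 1 read it was 20. The number called lower was 8 and ranged from 7 to 10. Of the genes not called, 9 passed the threshold in at least 1 alternative, among them FOXO4, FOXP3, KLF8, PBX2, RUNX2, RUNX3, SOX7 and SOX15. RUNX2 had 1.69 with quality weights (adjusted p = 0.00958), an alternative chosen after seeing the data. Genes called higher made up 57.7% of all called genes, 46.9% with upper-quartile factors and 48.5% without NSP replicate 1. The median of all genes moved by -0.183 with upper-quartile factors, -0.119 with median-ratio factors, -0.134 without NSP replicate 1 and -0.123 without SP replicate 4. The causes were not tested. No paired analysis was possible because the columns of the table carry the group but no replicate number. The planned edgeR test was not run, although the counts read by position are of a kind it can take, so how its calls compare is not known here. Counts of unique reads were not used because the headers name no measure. Read number limits the HOX, LHX and TBX genes, most of which did not pass the filter.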
